A study of Mus musculus with 4 samples.

Results

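The antioxidant enzymes described here are 10 listed genes (Gpx1, Gpx3, Gpx4, Sod1, Sod2, Sod3, Cat, Prdx1, Hmox1 and Nqo1) of the 20063 gene symbols counted in single cells from mouse lung. They were taken as a fixed list of names and not by their values. WT mice were ERG fl/fl and ERG CKO mice were CDH5-CreER(T):ERG fl/fl, in which an inducible Cre driven by an endothelial promoter deletes the ETS transcription factor gene Erg. Both genotypes carried the floxed allele, received 5 daily tamoxifen injections of 0.5 mg, and gave whole-lung cell suspensions 90 days later, with 2 libraries per genotype; the labels give no age. WT and ERG CKO therefore differed by the Cre transgene and by the deletion it brings about, and these cannot be told apart here.

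Glutathione peroxidases, catalase and peroxiredoxins reduce peroxides, and superoxide dismutases convert superoxide to hydrogen peroxide. Haem oxygenase splits haem, and quinone oxidoreductase reduces quinones; both are classic targets of the oxidant-responsive factor NRF2. In the lung, which meets high oxygen and inhaled oxidants, extracellular forms such as glutathione peroxidase 3 and superoxide dismutase 3 act outside cells, whereas the others act in the cytosol, mitochondria, peroxisomes or membranes.

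The glutathione peroxidases Gpx1, Gpx3 and Gpx4 carry selenocysteine, which is read from a TGA codon that elsewhere ends translation. The 30 coding bases around that codon, from the GENCODE vM21 transcripts on mm10, show the residue that does the chemistry in these enzymes. All 3 genes lie on the plus strand, the codons are at chr9:108339451-108339453, chr11:54907256-54907258 and chr10:80054737-80054739, and capitals mark the codon.
Gpx1: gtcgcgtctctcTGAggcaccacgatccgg
Gpx3: gtagccagctacTGAggtctgacagaccaa
Gpx4: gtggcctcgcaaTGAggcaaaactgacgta

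ERG binds DNA at ETS sites, so the promoters were searched for the letters AGGAAG on both strands. RefSeq promoters of 300 bases on GRCm38.p6 were at hand for 8 of the 10 members. AGGAAG occurred in those of 5 (Cat, Gpx1, Gpx3, Gpx4 and Prdx1) and in 35.4% of all 32851 promoters. The core of the antioxidant response element, TGACNNNGC, occurred in those of Prdx1 and Sod1 and in 12.4% of all promoters, and no match to it overlapped a match to AGGAAG. The Gpx3 promoter is shown because Gpx3 was the member that differed between genotypes. It covers the 120 bases before and the 5 bases after the RefSeq start at chr11:54902734-54902858 on the plus strand, with AGGAAG and its reverse complement in capitals; the GENCODE gene model begins further upstream, at base 54902453.
Gpx3 promoter: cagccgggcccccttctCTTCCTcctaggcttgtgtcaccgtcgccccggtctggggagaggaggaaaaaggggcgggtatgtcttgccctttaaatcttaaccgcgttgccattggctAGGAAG
A match of these letters describes the sequence, not binding.

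The 4 libraries held 1852 to 3097 cells and 11263911 to 18646776 unique molecular identifiers (UMIs, each standing for 1 captured transcript), at medians of 4611 to 4899 UMIs per cell. Levels are given as CPM, the gene's UMIs as a share of all UMIs of the same cell class and library, scaled to 1000000. Cell classes came from clustering without the members' own counts. Endothelial cells (ECs) made up 2646 of 9363 cells, with 540 to 764 per library, and 10 endothelial markers together reached 14585 to 19048 CPM there. These ECs leave out 2 clusters that were nearest to ECs by their markers but stayed unnamed. The larger had 880 cells at a median of 962.5 UMIs, with 7 of 10 endothelial markers raised. The other had 25 cells and was led by Ccl21a and Mmrn1. Erg transcripts in ECs were 86.5 and 89.7 CPM in the WT libraries and 107 and 83.5 CPM in the ERG CKO libraries, an edgeR log2 difference of 0.08 ± 0.16 (SE) with adjusted p = 0.871. The sources used here do not place the counted tags inside or outside the deleted part, so they do not check the genotype. Each genotype rests on 2 mice, and 7 cell barcodes were shared between libraries.

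Gpx3, the secreted plasma glutathione peroxidase (chr11:54902453-54910377), stood apart among lung cells in fibroblasts. Its level there was 2546 and 2403 CPM in the WT libraries and 2339 and 3808 CPM in the ERG CKO libraries. Fibroblasts were 4.20% of the cells and held 66.3% of all Gpx3 UMIs. Mural cells came next at 854, 938, 851 and 581 CPM in the same order, a range that lay below that of fibroblasts. Platelets and alveolar type 2 cells followed, at 126 to 411 CPM and 153 to 270 CPM, and these ranges overlapped. These classes also held fibroblast-marker UMIs. The 10 markers summed to 560, 203, 569 and 119 CPM in platelets and 489, 747, 195 and 194 CPM in alveolar type 2 cells. In mural cells they summed to 1366 to 1965 CPM. The part of fibroblast transcripts in the Gpx3 levels of these classes was not tested. ECs stood lower, and T cells, which should lack the gene, showed 2.08 to 8.01 CPM.

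Sod3, the secreted superoxide dismutase (chr5:52363791-52371418), had the same main source. Fibroblasts held 88.5% of its UMIs, at 851 and 849 CPM in WT and 726 and 905 CPM in ERG CKO libraries. In ECs Sod3 was nearly undetected, at 4.98, 0.630, 3.41 and 4.72 CPM. Thus both secreted enzymes were at their highest level in fibroblasts, and mural cells had the next highest mean for each, although for Sod3 their range overlapped that of alveolar type 2 cells. The genes whose levels most resembled Gpx3 over the 21 named classes and EC groups were Mfap4 and Inmt (Pearson r = 0.94 for both), and those nearest to Sod3 were Clec3b and Itga8 (r = 0.98 for both). The classes share libraries and depth, so these are descriptions.

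Gpx1, the cytosolic and mitochondrial glutathione peroxidase (chr9:108338903-108340343), was a gene of the monocyte and macrophage classes. Non-classical monocytes reached 2117 and 2360 CPM in WT and 2509 and 2423 CPM in ERG CKO libraries, above the 1413 to 1815 CPM of classical monocytes, whose range in turn lay above the 1003 to 1192 CPM of alveolar macrophages. Dendritic cells overlapped with alveolar macrophages. ECs, at 130 to 149 CPM, were far below these. Its nearest genes were Lgals3 and Cd68 (r = 0.92 for both), the latter a macrophage gene.

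Gpx4, which reduces lipid peroxides in membranes (chr10:80047166-80056439), was highest in platelets. Levels there were 1817 and 4061 CPM in WT and 2227 and 3356 CPM in ERG CKO libraries, so the libraries of 1 genotype differed from each other more than the genotypes did. Every other class lay below that range, led by alveolar type 2 cells at 632 to 775 CPM. The Gpx4 range of ECs, 333 to 527 CPM, overlapped that of several other classes. Platelets rested on 40 to 168 barcodes per library.

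**Figure D1:**
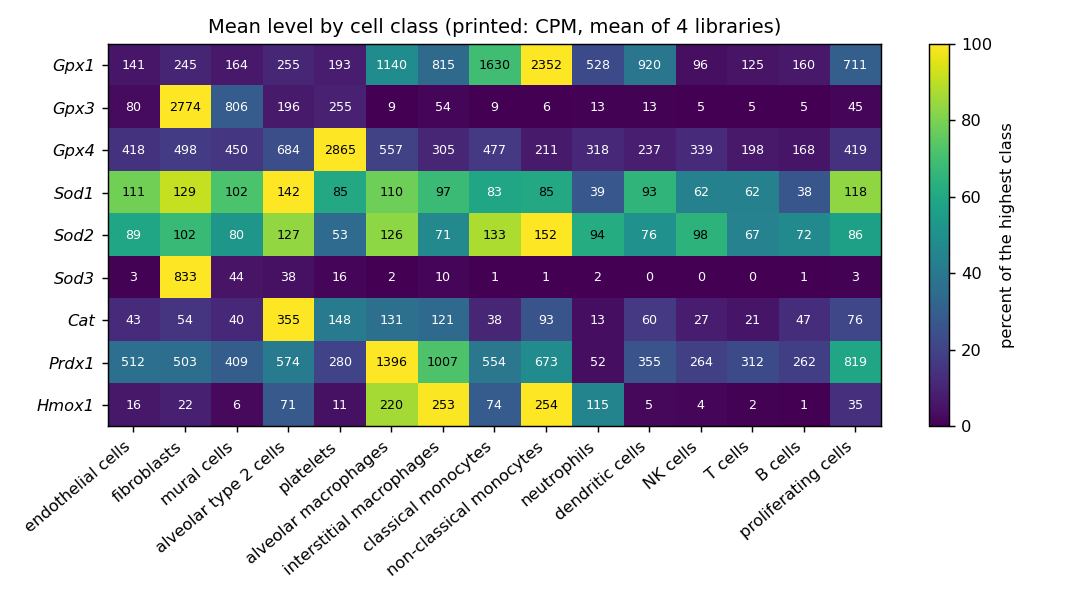
Mean CPM over the 4 libraries (printed) of 9 members in 15 cell classes, with colour showing the percent of the gene's own highest class. Gpx3 and Sod3 peak in fibroblasts, Gpx4 in platelets, Gpx1 in non-classical monocytes and Prdx1 in alveolar macrophages, while Sod1 and Sod2 vary little; Nqo1 is left out because no class reached 20 CPM.

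Catalase, Cat (chr2:103453849-103485160), which breaks down hydrogen peroxide in peroxisomes, was at its highest mean in alveolar type 2 cells, with 351 and 445 CPM in WT and 210 and 413 CPM in ERG CKO libraries. This class had 8 to 21 cells per library and its range overlapped that of platelets, at 68.6 to 217 CPM. Prdx1, a cytosolic peroxiredoxin (chr4:116685544-116700822), reached 1286 and 1301 CPM in WT and 1470 and 1526 CPM in ERG CKO alveolar macrophages, which held 37.0% of its UMIs in 6.65% of the cells. Interstitial macrophages, with 7 to 38 cells per library, spanned 584 to 1942 CPM. The highest value, in WT replicate 2, rested on 1 cell with 80 of the 106 UMIs; without the highest cell of each library the range was 520.4 to 725 CPM, below that of alveolar macrophages.

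Hmox1 (chr8:75093621-75100589), the inducible haem oxygenase, was highest in non-classical monocytes and macrophages, where single cells carried much of it. Non-classical monocytes showed 262, 252, 348 and 154 CPM, interstitial macrophages 36.5, 293, 347 and 335 CPM, and alveolar macrophages 156, 217, 214 and 292 CPM, for WT replicates 1 and 2 and ERG CKO replicates 1 and 2. These 3 ranges overlapped. In non-classical monocytes 3 cells held 78.2%, 72.2%, 53.7% and 38.8% of the UMIs of each library, with 1 cell at 159 of 277 UMIs in WT replicate 2, and without the highest cell of each library the levels were 144, 108, 267 and 133 CPM. In interstitial macrophages the 4 libraries held 4 to 48 Hmox1 UMIs. Alveolar macrophages alone held 51.2% of the Hmox1 UMIs. T and B cells lay at 0 to 2.60 CPM. The genes nearest to it were Tlr8 and Fcgr4 (r = 0.86 and 0.85), both genes of myeloid cells.

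The cytosolic Sod1 (chr16:90220754-90226329) and the mitochondrial Sod2 (chr17:13006846-13040063) were the flattest members. Their highest means, 142 CPM for Sod1 in alveolar type 2 cells and 152 CPM for Sod2 in non-classical monocytes, were 1.53 and 1.70 times the median class, and most neighbouring classes in the order overlapped; the exceptions were Sod1 between classical monocytes and T cells, and Sod2 between alveolar macrophages and fibroblasts. For Nqo1, the quinone oxidoreductase (chr8:107388225-107403206), there were 96 UMIs in all cells, 31 of them in ECs. That is too few for a level in any class, and Nqo1 did not pass the filter on low counts in ECs with all 4 libraries at the main clustering; where it passed under another setting it was not called. For the remaining members the nearest genes were Gas2l1 and Chac2 to Gpx4 (r = 0.88 and 0.86), Cnpy2 and Uap1 to Sod1 (0.91 and 0.87), Vapa and Tnfsf13os to Sod2 (0.81 and 0.77), Slc25a10 and Liph to Cat (0.87 and 0.79), and Akr1a1 and Slc30a7 to Prdx1 (0.87 for both).

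In ECs of ERG CKO against WT mice, no member passed an adjusted p (Benjamini-Hochberg over all genes tested) of 0.05 in edgeR's quasi-likelihood test on UMIs summed per library. The test took in 9 of the 10 members, all but Nqo1, and 306 of 10707 genes passed it (2.86%); 1 member was at an unadjusted p under 0.05, and DESeq2 called none. In 6 of the 9 members the WT and ERG CKO libraries did not overlap in CPM, 5 of them higher in ERG CKO and 1 lower, against 46.7% of all genes tested. The median log2 difference was 0.22 over the 9 members and 0.01 over all genes tested.

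Gpx3 came nearest to the threshold. Its EC level was 62.3 and 60.8 CPM in WT and 105 and 92.2 CPM in ERG CKO libraries. Both ERG CKO values were higher than both WT values, with a log2 difference of 0.65 ± 0.14 (SE) and adjusted p = 0.0530. The subtypes described below made up different shares of these ECs: aCap cells were 8.19% and 12.5% of the ECs in the WT libraries and 17.9% and 22.8% in the ERG CKO libraries, and gCap cells 51.5%, 45.6%, 34.7% and 31.9% in that order. The part of these shares in the difference over all ECs was not tested. The study named Gpx3 in ECs from these same libraries, so its direction is not independent evidence. The call changed with the setting: Gpx3 passed with no filter on low counts (adjusted p = 0.00131), with a replicate block (0.000222), without ERG CKO replicate 2 (0.0433) and under other clusterings (0.0438 to 0.0492). With ECs carrying any fibroblast-marker UMI left out, the difference was 0.42 ± 0.19 with adjusted p = 0.355; the 10 fibroblast markers summed to 104, 56.4, 108 and 107 CPM in the ECs of the 4 libraries, and their part in the result was not tested further.

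Gpx4 in ECs was 333 and 391 CPM in WT and 420.5 and 527 CPM in ERG CKO libraries. The groups did not overlap, and the log2 difference was 0.34 ± 0.15 with adjusted p = 0.332; with a replicate block it was 0.0324. Sod1 lay at 115 and 122 CPM in WT and 96.1 and 112 CPM in ERG CKO libraries, a difference of -0.23 ± 0.13 (adjusted p = 0.425). Hmox1 was 9.61, 15.7, 23.9 and 15.3 CPM, with overlapping groups and a difference of 0.61 ± 0.32 (adjusted p = 0.423). In ERG CKO replicate 1, 3 ECs held 47.3% of the 112 Hmox1 UMIs and a single EC held 49 of them; without the highest cell of each library the levels were 8.92, 15.1, 13.5 and 14.2 CPM. Leaving out the unnamed EC clusters that carried platelet, fibroblast or B-cell genes moved the Hmox1 difference to 0.14. The remaining members had fitted differences from -0.07 (Gpx1) to 0.50 (Sod3), the latter with an SE of 0.74.

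**Figure D2:**
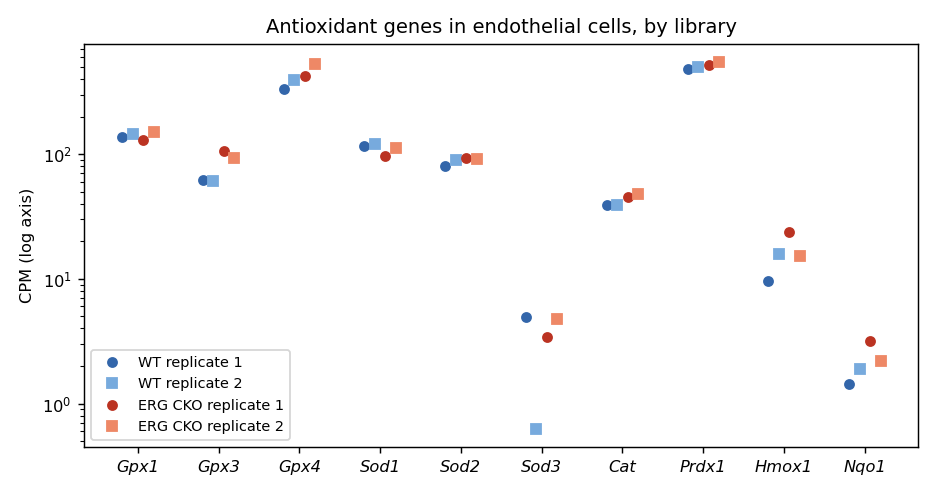
CPM (log axis) of the 10 members in ECs, with 1 point per library; circles and squares are replicates 1 and 2, blue is WT and red is ERG CKO. Of the 9 members tested, Gpx3, Gpx4, Sod2, Cat and Prdx1 are higher in both ERG CKO libraries than in both WT libraries, and Sod1 is lower. Of all genes tested, 46.7% do not overlap, and no member is called at an adjusted p of 0.05.

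Within EC subtypes the Gpx3 result split. gCap cells are the general capillary ECs, which act as capillary progenitors and carry markers such as Gpihbp1 and Plvap; aCap cells, or aerocytes, are the large capillary ECs of gas exchange and carry Car4 and Ednrb. In gCap ECs Gpx3 rose from 28.9 and 28.4 CPM in WT to 72.0 and 72.1 CPM in ERG CKO libraries, backed by 40, 38, 120 and 67 UMIs. Replicates of each genotype were nearly equal and the genotypes were far apart. The log2 difference was 1.30 ± 0.20 (SE), with an edgeR adjusted p of 0.00857. In aCap ECs Gpx3 fell from 139 and 165 CPM in WT to 78.6 and 110 CPM in ERG CKO libraries. The libraries again did not overlap, now with ERG CKO below, and the difference was -0.76 ± 0.22 with adjusted p = 0.0425.

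Gpx3 was the one called member in each of these subtypes, of 8 tested, beside 2.54% of all genes called in gCap and 10.5% in aCap. The genotype effect in gCap minus that in aCap was 2.07 ± 0.29 on the log2 scale (edgeR with the mouse as block, adjusted p = 0.000395), where 5.39% of genes passed; this test was added after the values were seen. WT aCap ECs thus had Gpx3 levels well above WT gCap ECs, 139 and 165 against 28.9 and 28.4 CPM, and in ERG CKO libraries the gap narrowed to 78.6 and 110 against 72.0 and 72.1 CPM. The remaining 7 members tested showed no such difference between subtypes, with adjusted p from 0.547 to 0.928.

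The gCap result was called under 16 of 17 alternatives, among them DESeq2 and ECs without fibroblast-marker UMIs (1.44 ± 0.28, adjusted p = 0.0393). Leaving out any 1 library was also among them, but this leaves 1 mouse in a genotype and so no spread within it. The exception was thinning each cell to 1000 UMIs, at 0.95 ± 0.41 and adjusted p = 0.429. The aCap fall was less firm, called under 12 of 18 alternatives. The call was lost with DESeq2 (adjusted p = 0.446), with thinning to 1000 UMIs and at the finer clustering resolution. It was also lost without WT replicate 1, WT replicate 2 or ERG CKO replicate 1, each of which leaves 1 mouse in a genotype. The aCap difference kept its sign under every alternative run, from -1.05 to -0.53. With no alignment of the libraries, gCap held 15 cells in ERG CKO replicate 2 and was not tested; the large unnamed EC cluster of that clustering had a Gpx3 difference of 1.81 ± 0.21 (adjusted p = 0.000333).

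Shares of cells with a Gpx3 UMI moved alike. In gCap the WT libraries had 9.35% and 10.4% and the ERG CKO libraries 27.2% and 20.3%, at median depths of 3913 to 5555 UMIs. In aCap the WT libraries had 45.1% and 53.3% and the ERG CKO libraries 21.9% and 25.2%, at 4881 to 6867 UMIs. T cells, which should lack Gpx3, showed 1.37% to 2.79% at 6107 to 6593 UMIs. After thinning to 1000 UMIs the shares were 2.49%, 3.99%, 6.79% and 5.95% in gCap, 10.2%, 15.1%, 2.94% and 6.78% in aCap, and 0% to 1.80% in T cells.

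Other measures moved with genotype in the same cells. The 11 aCap markers, Gpx3 not among them, summed to 20690 and 21067 CPM in WT aCap ECs and 7561 and 10679 CPM in ERG CKO aCap ECs. The 11 gCap markers summed to 10680.3 and 10358 CPM in WT gCap ECs and 7737 and 6868 CPM in ERG CKO gCap ECs, and aCap markers in gCap ECs to 1475, 1712, 1647 and 2624 CPM. Erythroid markers, chiefly haemoglobin, summed to 56.3 and 58.4 CPM in WT and 4018 and 6383 CPM in ERG CKO gCap ECs. The gCap difference of Gpx3 was 1.31 once barcodes above 20 haemoglobin UMIs had been removed (adjusted p = 0.0130). The 10 fibroblast markers, Gpx3's main source in the lung, summed to 65.0, 34.4, 60.6 and 80.7 CPM in gCap ECs. The 11 dissociation stress genes summed to 20984 and 23324 CPM in WT and 18022 and 20216 CPM in ERG CKO gCap ECs, and to 7246, 8621, 12493 and 9251 CPM in aCap ECs, so they were lower with ERG CKO in gCap and higher in aCap without overlap. Mitochondrial genes took 3.63%, 3.56%, 3.89% and 3.71% of the UMIs of gCap ECs and 3.83%, 3.96%, 4.37% and 4.22% of those of aCap ECs, higher in both ERG CKO libraries. The part of the aCap and gCap markers, the stress genes and the mitochondrial share in the Gpx3 result was not tested. With cells of over 10% mitochondrial UMIs left out, the log2 difference in Gpx3 was 1.31 in gCap (adjusted p = 0.00852) and -0.75 in aCap ECs (adjusted p = 0.0319).

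**Figure D3:**
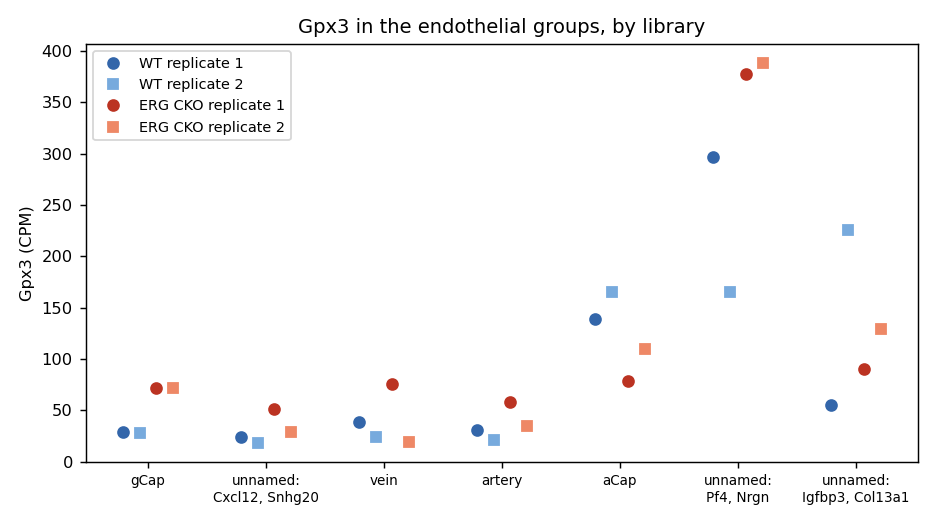
Gpx3 CPM in 7 EC groups, with 1 point per library (blue WT, red ERG CKO); unnamed groups go by their leading genes. ERG CKO points lie above WT points in gCap and below them in aCap, and the unnamed group led by Pf4 and Nrgn holds the highest values, up to 388 CPM.

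With the main settings the other EC groups gave no called member. In 4 of them the test could be made, over 21 member and group pairs, with 0 called against 1.01% of all gene and group pairs. The unnamed capillary-like group led by Cxcl12 and Snhg20 had Gpx3 at 23.6 and 18.6 CPM in WT and 51.6 and 28.9 CPM in ERG CKO libraries (0.96 ± 0.40, adjusted p = 0.431). The unnamed group led by Pf4 and Nrgn, genes of platelets, also carried the fibroblast genes Inmt and Mfap4, and its Gpx3 level was 297, 165, 378 and 388 CPM. Hmox1 in this group was 0, 30.4, 115 and 4.57 CPM, with overlapping genotypes. It was called by edgeR with no filter on low counts (2.14 ± 0.54, adjusted p = 0.00717). The Hmox1 difference was 7.51 without WT replicate 2 and 2.80 without ERG CKO replicate 2. Vein ECs had 39.0, 24.5, 76.1 and 19.0 CPM, with overlapping groups. Gpx1 was higher in vein (194 to 347 CPM) and artery (244 to 560 CPM) than in gCap ECs (126 to 140 CPM), although artery ECs numbered 13 to 16 per library and were not tested.

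Gpx1, Gpx4, Cat and Prdx1 were higher in both ERG CKO libraries than in both WT libraries in gCap and in aCap ECs. Groups did not overlap for 7 of 8 members in gCap and 5 of 8 in aCap ECs, against 43.5% and 49.8% of all genes tested there. Gpx4 lay at 341 and 341 CPM in WT and 390 and 436 CPM in ERG CKO gCap ECs, and at 336, 492, 543 and 691 CPM in aCap ECs. The ERG CKO libraries were the higher ones in both subtypes, yet the differences of 0.24 ± 0.15 and 0.52 ± 0.21 had adjusted p of 0.576 and 0.147. In aCap the Gpx4 value passed with a replicate block (adjusted p = 0.0303) and without ERG CKO replicate 1 (0.0158). Prdx1 ranged from 494 to 542 CPM in gCap and from 507 to 622 CPM in aCap ECs.

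**Figure D4:**
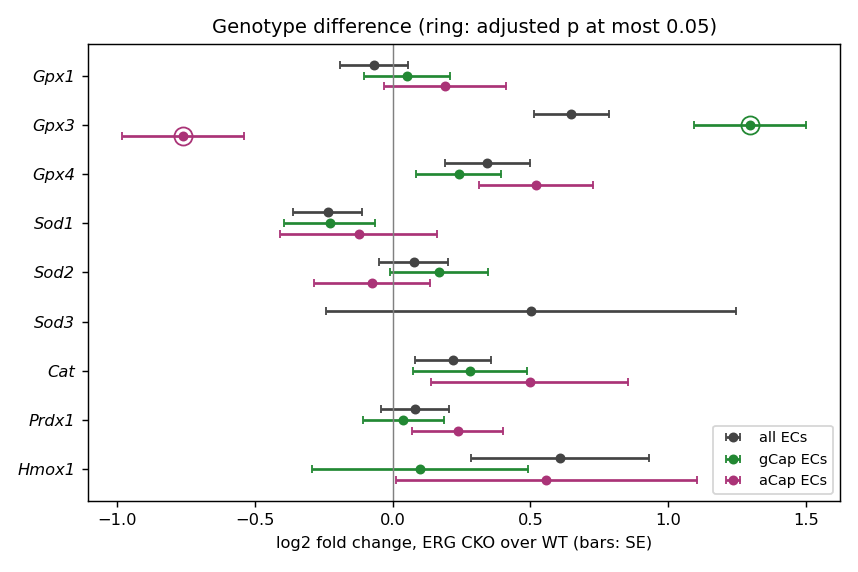
Log2 fold change of ERG CKO over WT with its SE for 9 members in all ECs, gCap ECs and aCap ECs; rings mark adjusted p of at most 0.05, and Sod3 was tested in all ECs alone. Gpx3 is the one ringed gene, at 1.30 in gCap and -0.76 in aCap, while its value over all ECs is 0.65.

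In the other lung classes, which the Cre driver is not meant to target, no member was called. In alveolar macrophages 6 of 8 members did not overlap between genotypes, all 6 higher in ERG CKO, beside 3177 of 9270 genes tested. The median log2 difference there was 0.21 over the members and 0.001 over all genes tested. Each of the other classes tested had 1 to 3 members without overlap. Over 10 classes there were 68 member and class pairs, with 0 called by edgeR and 0 by DESeq2, against 0.151% of all gene and class pairs; 2 pairs were at an unadjusted p under 0.05. These were Hmox1 in alveolar macrophages (0.46 ± 0.19, adjusted p = 0.963) and in neutrophils, where it was 180 and 132 CPM in WT and 49.4 and 97.8 CPM in ERG CKO libraries (-1.04 ± 0.42, adjusted p = 0.973). Gpx3 in fibroblasts differed by 0.30 ± 0.20 (adjusted p = 0.807), and by 0.59 (adjusted p = 0.0433) without ERG CKO replicate 1, which leaves 25 ERG CKO fibroblasts. Without WT replicate 2, Hmox1 in alveolar macrophages and Gpx4 in dendritic cells passed, at adjusted p of 0.0291 and 0.0410, and with a replicate block the former passed as well (0.0328). A single alveolar macrophage held 258 of the 577 Hmox1 UMIs of ERG CKO replicate 2; without the highest cell of each library the levels were 145 and 188 CPM in WT and 197 and 164 CPM in ERG CKO mice, and the groups overlapped. Tests of whether the genotype effect in ECs differed from that in each of these 10 classes called 0 of 85 member pairs, against 0.756% of all gene pairs, with 5 pairs at an unadjusted p under 0.05. Without ERG CKO replicate 2, Gpx3 differed between ECs and fibroblasts by 0.82 ± 0.20 (adjusted p = 0.00347).

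A wider set of 83 genes of the same pathways was followed in ECs, and 78 of them were tested. Among them 1 rose and 1 fell, which is near the 2.86% of all genes, and their median log2 difference was 0.13. Mt1, a metallothionein that binds zinc and copper and scavenges radicals, rose from 14.95 and 5.04 CPM in WT to 64.2 and 47.2 CPM in ERG CKO ECs (2.48 ± 0.38, adjusted p = 0.0222). Xdh, xanthine dehydrogenase, a source of superoxide and hydrogen peroxide, fell from 250 and 248 CPM to 161 and 157 CPM (-0.69 ± 0.12, adjusted p = 0.0271). Replicates of Xdh were nearly equal, yet it was called under 13 of 17 alternatives, with differences from -0.77 to -0.65. The Xdh call was lost with thinning to 1000 UMIs. It was also lost without WT replicate 1, WT replicate 2 or ERG CKO replicate 2, each of which leaves 1 mouse in a genotype. Mt1 missed the threshold with ECs of any fibroblast-marker UMI left out (adjusted p = 0.0861).

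By list, none of 16 thiol peroxidase and thioredoxin genes, 18 glutathione genes, 14 regulators of NRF2 and NADPH supply or 10 genes of selenoprotein supply tested was called in ECs. The called genes were 1 of 12 metal-handling genes (Mt1) and 1 of 8 superoxide and peroxide sources (Xdh).

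In aCap ECs 12 of 51 wider genes were called, 6 higher and 6 lower, where 10.5% of all genes were called; in gCap ECs 2 of 63 were called, Mgst1 and Mt1, both higher. The following genes are named after their values were seen. Mgst1, a membrane glutathione transferase, was at 0 and 1.83 CPM (0 and 1 UMIs) in WT and 23.6 and 33.2 CPM (18 and 20 UMIs) in ERG CKO aCap ECs, with an adjusted p of 0.00300 and too few WT counts for a fold. In gCap ECs it was 6.50 and 5.99 CPM in WT and 28.2 and 44.1 CPM in ERG CKO libraries (2.43 ± 0.37, adjusted p = 0.00726). Mt1 in gCap ECs was 7.94, 5.99, 94.7 and 36.6 CPM, which separates the genotypes but leaves the ERG CKO libraries wide apart. Selm (now Selenom), a selenoprotein of the endoplasmic reticulum, rose from 11.6 and 12.8 CPM to 72.0 and 73.0 CPM in aCap ECs (2.49 ± 0.36, adjusted p = 0.000406), and in gCap ECs differed by 0.13 ± 0.26. Mgst3, a further membrane glutathione transferase, fell in aCap ECs from 304 and 336 CPM to 136 and 178 CPM (-1.08 ± 0.19, adjusted p = 0.00208).

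Of 9 metal-handling genes tested in aCap ECs, 1 was called higher and 1 lower, and the rest were not called. Fth1, the ferritin heavy chain that stores iron, rose from 1296 and 1506 CPM to 2362 and 2751 CPM (0.83 ± 0.17, adjusted p = 0.00480). Slc40a1, the iron exporter ferroportin, fell from 46.4 and 34.9 CPM to 6.55 and 16.6 CPM, on 16, 19, 5 and 10 UMIs (-1.86 ± 0.47, adjusted p = 0.0196). The others higher in ERG CKO aCap ECs were Cyba, a subunit of NADPH oxidase, Nfe2l1 and Prdx5, and the others lower were Txnip, Gstm2, Glrx5 and Xdh, with differences from -1.08 to 1.07. The fall of aCap markers and the rise of stress genes and mitochondrial share given above hold for these cells too.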

How the data were processed

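Whole-lung cells of 2 WT and 2 ERG CKO mice were sequenced by droplet single-cell RNA-seq. Per the labels, the authors made the deposited counts, whole UMI counts per gene and cell, with Cell Ranger 3.1.0 on mm10; the annotation release is not given in the sources used here. The labels name a lung dissociation kit and the study's methods an enzyme mix, so the digestion is uncertain. The table has 20076 rows; 13 symbols on 2 rows were summed, giving 20063. All 10 member symbols matched, and older symbols were used for selenoprotein genes. All 9363 cells passed a minimum of 200 genes; Scrublet in scanpy 1.11.5 called 58 doublets (0.619%), which were kept.

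Cells were aligned by canonical correlation and clustered with Seurat 5.3.0 (2000 variable genes, 30 dimensions, resolution 0.8), leaving out the members, the wider lists and Erg. ECs were clustered again (20 dimensions, resolution 0.6) without the genes called in ECs. Clusters were named from marker lists, and clusters with mixed or leading markers of another class stayed unnamed. These names were rebuilt and may differ from the study's; shares of EC subtypes are given with no test.

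Counts were summed per library and class with at least 20 cells in every library, because the mouse is the replicate, and tested with edgeR 4.0.16 (TMM, filterByExpr, quasi-likelihood, Benjamini-Hochberg over all genes of the class, threshold 0.05) in R 4.3.3; scripts were tested on simulated data. The p-values rest on the spread between 2 mice per genotype, which edgeR moderates with the spread of other genes. With 1 library left out, a genotype has 1 mouse, so the spread comes from the other genotype and from other genes. Differences are log2 ERG CKO over WT. A class difference was tested with class by genotype and mouse as block. DESeq2 1.42.0, another filter, each library left out, a replicate block, cell filters, clusterings and thinning were alternatives; those on fibroblast-marker UMIs, unnamed or single clusters, RLE size factors and the gCap and aCap test were added after the data were seen.

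The text names all members, wider-list genes called in ECs (at most 8 per list), and the 2 genes most like each member by Pearson r of log2(mean CPM + 10), among genes of at least 20 CPM in 1 class. The members and lists were chosen with earlier results of these data known. Levels between classes carry no test, since classes came from clustering.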

Additional observations from a re-analysis of the deposited data

Results flagged for a closer look

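The genotype effect on Gpx3 differed between capillary EC subtypes: the log2 difference of ERG CKO over WT in gCap minus that in aCap ECs was 2.07 (edgeR interaction term with mouse as block, adjusted p = 0.000395), since Gpx3 was higher in both ERG CKO libraries in gCap ECs and lower in both in aCap ECs. Over 14 alternatives the value ranged from 1.81 to 2.44, and 13 of them passed the threshold.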

How the results depend on the processing

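The number of members called in ECs, 0 as reported, became 1 (Gpx3) with no filter, at clustering resolutions 0.4 and 1.2 and with no alignment, and 2 (Gpx3 and Gpx4) with a replicate block; leaving out 1 library gave 0 to 1. Over EC subtypes, 2 calls became 1 with DESeq2 and at resolution 1.2 and 0 with thinning to 1000 UMIs, and leaving out 1 library gave 1 to 3. In other classes 0 calls became 1 with the replicate block (Hmox1 in alveolar macrophages) and 0 to 2 without 1 library. Of the wider genes in ECs, 2 became 11 with no filter, 14 with the replicate block, 1 with thinning and 1 without ECs carrying fibroblast-marker UMIs, and 1 to 2 without 1 library. Differences between ECs and other classes went from 0 to 0 to 1 without 1 library. The gCap against aCap count of 1 became 0 with thinning, which cuts the UMIs summed; with no alignment it could not be fitted, as gCap held 15 cells in a library. Signs turned, with no call, for Gpx1 (-0.15 to 0.0016 without 1 library), Sod3 (-0.37 to 2.56 without 1 library), Sod2, Cat and Prdx1 (-0.013, -0.050 and -0.088 with thinning) and Hmox1 (-0.077 without ECs carrying fibroblast-marker UMIs). Nqo1 aside, all 9 members kept their highest class under 4 alternatives and 7 did at resolution 0.4. At that resolution the cluster of 485 cells led by Dcn, Inmt and Mfap4 stayed unnamed, so no class was named fibroblasts. Gpx3 and Sod3, highest in fibroblasts, could therefore not keep their class there. Where not stated, the cause was not tested. Same-numbered libraries share only a number: with 2 pairs, their deviations over 10707 genes in ECs correlated at r = 0.287, and the labels name no shared litter or day. Counts were too few for a level of Nqo1 in any class, and cells too few for tests of classes with under 20 in a library.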
